A study of Mus musculus with 9 samples.

Results

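The genes examined here are 51 genes of mitosis and chromosome segregation, chosen by symbol from a fixed list that covers entry into mitosis, the spindle checkpoint, the kinetochore, the spindle, cytokinesis, chromosome condensation and the onset of anaphase. All 51 were found among the 55367 genes of the deposited table, and all 51 passed the filter on low counts, as did 15365 genes in all. RNA-Seq had been performed on whole spontaneous osteosarcomas resected from genetically engineered mice (GEMMs), 4 of them p53 driven and 5 Myc knockin. The p53-driven mice carry the genotype Col2.3-Cre/TrpP53fl/+ and the Myc-knockin mice Cre-Lox-Stop-Lox;(LSL)-c-MycT58A together with p53fl/+, so that floxed Trp53 in heterozygous form and Cre are shared by both groups. In both models Cre is driven by Col2.3, a promoter active in osteoblasts, and a knocked-in Myc allele is therefore switched on in that lineage, whereas the RNA came from all cells of a tumor. The age of each mouse is not given in the sources used here, but mice of the Myc-knockin model are typically killed younger, so age may differ along with genotype. The labels do not say that each tumor came from a different mouse, so p values measure the spread between these samples. The question addressed is how far the transcripts of the mitotic machinery differed between the groups, and in which tumors.

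Cells enter mitosis when CDK1 bound to cyclin B is activated. Kinetochores then assemble on centromeres and capture spindle microtubules, and the spindle checkpoint holds back the anaphase-promoting complex (APC/C) until every chromosome is attached. Many of these genes are transcribed together late in the cell cycle, when the MuvB complex binds with B-MYB (Mybl2) and FOXM1, and the same core, as part of the DREAM complex, holds them down in resting cells and downstream of p53 and p21.

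Myc and Trp53 were examined first, as a check of the labels. Values are given throughout as CPM, the counts per 1e6 of the TMM-normalized library size, in the order F187, F325, F331 and F368 for the p53-driven tumors and M351, M408, M9, M624 and M664 for the Myc-knockin tumors. Myc had 46.2, 43.5, 67.1 and 60.4 CPM in the p53-driven tumors and 269.6, 520.3, 144, 1045 and 905 CPM in the Myc-knockin tumors. Every Myc-knockin tumor was above every p53-driven tumor, with a log2 fold change of 3.41 (standard error 0.59, adjusted p = 0.0217), from the quasi-likelihood F test of edgeR, adjusted by Benjamini-Hochberg over all genes tested like the other p values here. The adjusted p ranged from 6.94e-09 with DESeq2 to 0.0909 without F368, and it was 0.0813 without F325, 0.0782 without F331 and 0.0659 with scaling by library size alone. Trp53 had 8.30, 9.49, 13.5 and 8.88 CPM in the p53-driven tumors and 4.92, 37.7, 3.19, 10.1 and 17.4 CPM in the Myc-knockin tumors, and the groups overlapped, with a log2 fold change of 0.58 (adjusted p = 0.569) that was -0.072 without M408. The deletion of a floxed allele cannot be read from these counts per gene, which do not separate exons.

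Several libraries stood apart. In M624 and M664, the small nuclear RNA Rn7sk, which carries no poly(A) tail, had 5.33 and 9.32 CPM relative to the counts outside satellite genes, against at least 8858 CPM in the other 7 tumors. Both are Myc knockin, so what sets the pair apart cannot be told apart from genotype there, and many values are also given without it. Another 4 libraries held many satellite-repeat reads, and 12 such genes took 44.3% of the counts in F187, 67.9% in M351, 23.2% in M408 and 81.0% in M9, against at most 0.0242% in the other 5. Total counts were 3026217, 10593069, 9498026 and 6853293 in the p53-driven and 2716322, 4295475, 3532881, 17073285 and 15769788 in the Myc-knockin tumors, and outside the satellite genes M9 held 671790 counts and M351 872935. The 51 genes together had 2954 counts in M9, 4957 in M351 and 5135 in F187, but 111889 in M624. Reads expected from genomic background, estimated from chemosensory receptor genes per kilobase of exon, came to 12.3% of these counts in M9, 6.63% in M351 and 4.05% in F187, and to at most 0.215% in the other 6 tumors. A floor set at 3 counts, below which values can still occur, was 2.39 CPM in M9 and 0.114 CPM in M624.

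The mean log2 CPM of the 51 genes was 4.66, 4.95, 4.30 and 4.26 in the p53-driven tumors. It was 5.32, 5.64, 5.06, 6.04 and 5.00 in the Myc-knockin tumors. M624 was highest and F368 lowest, and the groups were separated only by the small gap between F325 and M664. The group means were 5.41 ± 0.43 (SD, n = 5) and 4.54 ± 0.33 (SD, n = 4), a difference of 0.87 that was larger than either SD. It was 0.80 between the 3 Myc-knockin tumors outside the pair and the p53-driven tumors. Whether a tumor held more dividing cells or more of these transcripts per cell cannot be told apart in bulk RNA. M624 had the highest value for 32 of the 51 genes and M408 for 14, whereas the lowest value fell in F331 for 19, in F368 for 15 and in M664 for 12. M664 therefore held the second highest Myc level and the lowest mean of these genes among the Myc-knockin tumors.

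**Figure D1:**
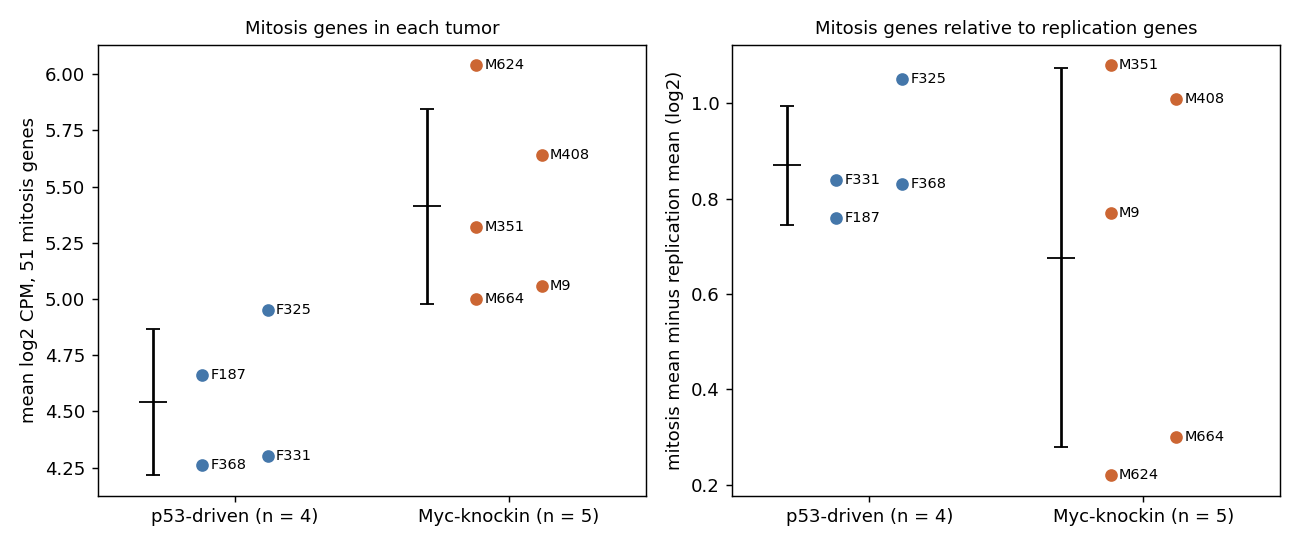
The left panel plots the mean log2 CPM of the 51 mitosis genes in each tumor, and the right panel that mean minus the mean log2 CPM of 36 DNA replication genes; points are tumors and bars are the group mean ± SD. On the left the p53-driven tumors lie between 4.26 and 4.95 and the Myc-knockin tumors between 5.00 and 6.04, and on the right M624 and M664, at 0.22 and 0.30, lie below the other 7 tumors.

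All 51 genes had a log2 fold change above 0 in the comparison of Myc-knockin with p53-driven tumors, or 47 of them when scaled by library size alone, with a median of 0.92 and a range from 0.050 to 2.37. Over all 15365 genes tested the median was 0.14, and 56.2% had a value above 0. Genes were called when the adjusted p was below 0.05 and the fold change above 1.5, which held for 7 of the 51 genes, all higher in the Myc-knockin tumors, where 2.26% of all genes tested were called higher and 5.27% in either direction. These were Ccnb1, Bub1b, Cenpa, Aurkb, Birc5, Kif15 and Espl1. An unadjusted p under 0.05 was reached by 31 of the 51, all of them higher, and by 14.9% of all genes tested in that direction. The groups did not overlap for 15 of the 51, each higher in the Myc-knockin tumors, against 5.41% of all genes higher and 7.54% lower without overlap. With the expected background subtracted 8 of these 15 were still without overlap, the others being Mybl2, Aurka, Cenpa, Aurkb, Incenp, Kif15 and Prc1. With libraries rescaled after the subtraction 14 were, the exception being Mybl2.

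The calls depended on single tumors. With F187, F325, F331 or F368 left out, edgeR called 0 of the 51 genes, while 26, 31, 23 and 20 of them had an unadjusted p under 0.05. Over all genes the calls in these fits numbered 335, 8, 6 and 5, against 809 with all tumors. Without M351 or M624, 3 of the 51 were called, and without M9 16, in fits that called 2.44%, 2.62% and 10.4% of all genes. Without both M624 and M664, 6 were called, Bub1b, Espl1, Kif15, Hmmr, Kif11 and Kif18a, of which 3 were among the 7. That fit called 4.61% of all genes. With all tumors DESeq2 called 24 and limma-voom 15, each including all of the 7, in fits that called 17.4% and 10.8% of all genes. Direction changed for fewer genes. Scaled by library size alone, Anln, Ect2, Ndc80 and Smc4 were slightly below 0 and 0 genes were called by edgeR, with 11 at an unadjusted p under 0.05. Without the pair, only Mad2l1 was below 0, at -0.081, and with 1 tumor left out at most 3 genes were, all among Anln, Ect2, Smc4, Ndc80 and Mad2l1. Without the 4 libraries with satellite reads, which leaves M624 and M664 as the Myc-knockin tumors, Cenpe and Cenpf were below 0 as well.

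**Figure D2:**
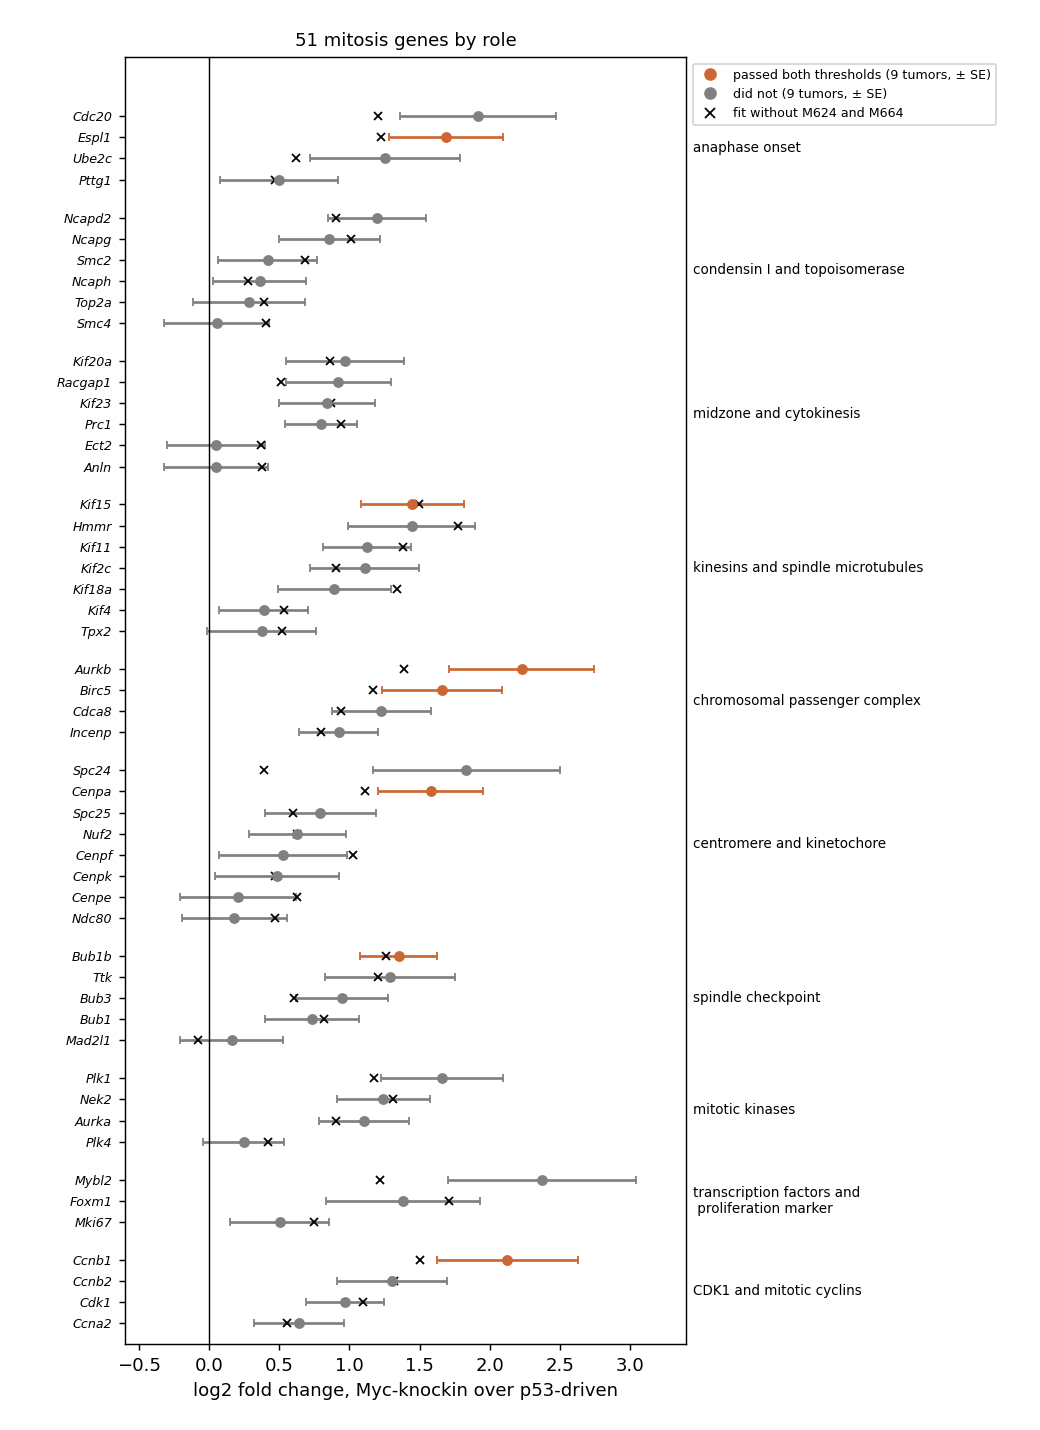
The log2 fold change of Myc-knockin over p53-driven tumors is plotted for the 51 genes by role, with circles and bars for the estimate ± SE over 9 tumors (orange for the 7 genes past both thresholds) and crosses for the fit without M624 and M664. All circles lie above 0, where scaling by library size alone puts Anln, Ect2, Ndc80 and Smc4 below it, and the cross of Spc24 lies at 0.39 against 1.83 for its circle.

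Among CDK1 and the mitotic cyclins, the B-type cyclin Ccnb1 (ENSMUSG00000041431, chromosome 13 from 100778650 to 100786570 of mm10) had 11.5, 10.03, 9.95 and 5.35 CPM in the p53-driven tumors and 13.5, 37.9, 20.7, 82.5 and 41.9 CPM in the Myc-knockin tumors. Values were highest in M624 and M664, M351 lay just above the highest p53-driven tumor, and the groups did not overlap. Ccnb1 had a log2 fold change of 2.13 (standard error 0.50, adjusted p = 0.04), and without the pair its value was 1.501. Cdk1, the kinase that cyclin B activates, had 18.2, 27.1, 29.2 and 25.4 CPM in the p53-driven tumors and 48.0, 70.0, 34.3, 42.9 and 49.7 CPM in the Myc-knockin tumors. Here the highest tumor was M408 and the pair did not stand out, and the groups were again separate, with a log2 fold change of 0.97 that missed the adjusted threshold (adjusted p = 0.0622). Ccnb2, a second B-type cyclin, had a log2 fold change of 1.30 and Ccna2, which acts in S phase as well as in mitosis, 0.64, and neither was called.

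The transcription factors of this program differed from each other in where they were high. Mybl2, the B-MYB subunit that joins MuvB, had the largest log2 fold change of the 51, 2.37 (standard error 0.67, adjusted p = 0.0606). Its values were 5.14, 8.17, 1.73 and 3.16 CPM in the p53-driven tumors and 9.23, 10.8, 10.4, 56.5 and 27.8 CPM in the Myc-knockin tumors. M351, M408 and M9 were only slightly above F325, and in M9 5.8 of 13 counts and in M351 5.2 of 15 were expected as background, without which both were below F325. The value without the pair was 1.22. Foxm1, the forkhead factor that follows B-MYB onto these promoters, had 43.1, 38.4, 17.0 and 23.8 CPM in the p53-driven tumors and 34.5, 190.1, 53.4, 86.0 and 30.8 CPM in the Myc-knockin tumors. M408 alone stood far above the rest, M351 and M664 lay within the p53-driven range, and the log2 fold change was 1.38 with a standard error of 0.55, or 0.78 without M408 and 1.71 without the pair. Mki67, which coats mitotic chromosomes and is the standard marker of dividing cells, had 219.6, 289, 193 and 201 CPM in the p53-driven tumors and 365, 469, 253, 359.5 and 151 CPM in the Myc-knockin tumors. M664 had the lowest value of all 9 tumors, the groups overlapped, and the log2 fold change was 0.50.

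Of the mitotic kinases, Plk1, which acts from mitotic entry to cytokinesis, had 12.6, 14.9, 8.65 and 9.12 CPM in the p53-driven tumors and 27.1, 31.3, 13.5, 69.3 and 35.2 CPM in the Myc-knockin tumors. M624 was highest, M9 was below F325, and the log2 fold change of 1.66 missed the threshold narrowly (adjusted p = 0.0501) and was 1.18 without the pair. Aurka, the kinase of spindle poles, had 13.0, 23.1, 10.2 and 12.9 CPM in the p53-driven tumors and 24.0, 28.2, 27.9, 44.5 and 34.0 CPM in the Myc-knockin tumors. All Myc-knockin tumors were above all p53-driven tumors, F325 being close to M351, with a log2 fold change of 1.10. Nek2, a centrosomal kinase, did not overlap between the groups either (1.24), whereas Plk4, the kinase of centriole duplication, had 0.25, or 0.16 without F368 and 0.44 without M664, where it was lowest.

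The spindle checkpoint held the called gene with the smallest standard error. Bub1b (ENSMUSG00000040084, chromosome 2 from 118598211 to 118641591), which encodes the checkpoint protein BUBR1, had 38.3, 34.5, 29.6 and 25.9 CPM in the p53-driven tumors and 63.4, 89.0, 66.9, 118 and 69.3 CPM in the Myc-knockin tumors. The lowest Myc-knockin tumor, M351, was well above the highest p53-driven tumor, F187. Bub1b had a log2 fold change of 1.35 (standard error 0.28, adjusted p = 0.0279), its value without the pair was 1.26, and it was called in 5 of the 9 fits that left out 1 tumor. Bub3, its partner at kinetochores, had 31.2, 37.5, 38.6 and 28.5 CPM in the p53-driven tumors and 45.6, 67.4, 33.5, 96.4 and 82.6 CPM in the Myc-knockin tumors. M351, M408, M624 and M664 were above the p53-driven range and M9 within it, and the log2 fold change was 0.95, or 0.60 without the pair. Mad2l1, the MAD2 subunit of the inhibitor of APC/C, had 60.04, 42.3, 46.7 and 39.0 CPM in the p53-driven tumors and 50.5, 51.1, 24.7, 97.5 and 36.4 CPM in the Myc-knockin tumors. M624 was highest, while M9 was lowest and M664 also below every p53-driven tumor. The log2 fold change of 0.16 became -0.14 without M624. Bub1 and Ttk, the checkpoint kinases, had log2 fold changes of 0.73 and 1.29 and overlapped between the groups.

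At the centromere, Cenpa (ENSMUSG00000029177, chromosome 5 from 30666777 to 30674830), the histone variant that marks it, had 16.6, 17.7, 20.4 and 14.8 CPM in the p53-driven tumors and 37.6, 46.5, 22.3, 87.2 and 63.8 CPM in the Myc-knockin tumors. Values in M624 and M664 were highest, M9 lay only slightly above F331, and the groups did not overlap. With background subtracted M9 (16.5 CPM) was below F331 (20.4 CPM), but not with libraries rescaled as well. Cenpa had a log2 fold change of 1.58 (standard error 0.37, adjusted p = 0.0398), and 1.11 without the pair. Ndc80, the outer kinetochore subunit that binds microtubules, had 22.1, 30.2, 13.3 and 12.8 CPM in the p53-driven tumors and 22.2, 23.8, 32.7, 22.0 and 11.4 CPM in the Myc-knockin tumors. Those values overlapped throughout, with F325 second only to M9 and M664 lowest of all. The log2 fold changes of the subunits of the NDC80 complex spread widely, and Ndc80 had 0.18 (-0.026 when scaled by library size alone, from -0.013 to 0.48 with 1 tumor left out and 0.47 without the pair), Nuf2 0.63, Spc25 0.79 and Spc24 1.83. Spc24, picked here after its values were seen, had 5.53, 5.29, 2.85 and 3.16 CPM in the p53-driven tumors and 5.54, 4.76, 5.58, 38.4 and 17.6 CPM in the Myc-knockin tumors. Its difference lay in M624 and M664, while the other Myc-knockin tumors were level with F187 and F325, and its value was 1.12 without M624 and 0.39 without the pair. For Spc24 3.2 of 7 counts in M9 and 2.9 of 9 in M351 were expected as background, without which both were below F187 and F325. Cenpe, the kinesin of kinetochores, and Cenpf, a large protein of the outer kinetochore, had log2 fold changes of 0.21 and 0.53. Both were lowest in M664, and the values were 0.008 and 0.32 without M408, 0.46 and 0.82 without M664, and 0.63 and 1.023 without the pair. Cenpk, of the inner kinetochore, had 0.48, but in M9 it had 4 counts where 6.5 were expected as background, and in M351 7 where 5.9 were expected.

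The chromosomal passenger complex, which corrects faulty attachments and guides cytokinesis, was the only role in which none of the genes overlapped between the groups, although with background subtracted and libraries not rescaled Aurkb and Incenp did, in M9. Its kinase Aurkb (ENSMUSG00000020897, chromosome 11 from 69045647 to 69051664) had 5.53, 7.62, 5.88 and 5.11 CPM in the p53-driven tumors and 13.5, 21.4, 9.56, 60.7 and 34.0 CPM in the Myc-knockin tumors. M624 and M664 stood highest and M9, with 12 counts, lowest among the Myc-knockin tumors. Aurkb had a log2 fold change of 2.23 (standard error 0.52, adjusted p = 0.038), and 1.39 without the pair. Birc5 (ENSMUSG00000017716, chromosome 11 from 117849251 to 117855743), which encodes survivin, had 10.3, 20.2, 7.96 and 9.97 CPM in the p53-driven tumors and 24.6, 27.7, 26.3, 74.1 and 37.6 CPM in the Myc-knockin tumors. F325 approached M351, and Birc5 had a log2 fold change of 1.66 (standard error 0.43, adjusted p = 0.0487). Without the pair its value was 1.17. Cdca8 (borealin) had a log2 fold change of 1.23 and Incenp, the scaffold of the complex, 0.92, and neither passed the adjusted threshold. The median over these 4 genes was 1.44.

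Among the kinesins and spindle proteins, Kif15 (ENSMUSG00000036768, chromosome 9 from 122951046 to 123018733), a motor that can share the work of Kif11 in keeping the spindle bipolar, had 19.0, 14.2, 18.5 and 14.1 CPM in the p53-driven tumors and 48.0, 56.0, 27.1, 69.3 and 22.1 CPM in the Myc-knockin tumors. M664 lay just above F187 and the groups did not overlap. In M9 13.7 of 34 counts were expected as background, and with these subtracted M9 (16.2 CPM) was below F331 (18.5 CPM), but not with libraries rescaled after the subtraction. Kif15 had a log2 fold change of 1.45 (standard error 0.37, adjusted p = 0.0466), and 1.495 without the pair. Kif11, the main motor that pushes spindle poles apart, had 20.5, 42.7, 27.5 and 21.2 CPM in the p53-driven tumors and 73.9, 81.3, 54.2, 55.2 and 42.1 CPM in the Myc-knockin tumors. F325 and M664 were nearly level, which made the groups overlap, and the log2 fold change was 1.13. Tpx2, which activates Aurora A and nucleates microtubules, had 70.7, 115, 42.5 and 48.6 CPM in the p53-driven tumors and 86.2, 119, 79.7, 122 and 42.1 CPM in the Myc-knockin tumors. F325 was nearly as high as M408, M664 was lowest of all, and the log2 fold change was 0.38, or 0.74 without F325, 0.20 without F331, 0.21 without F368 and 0.58 without M664. Hmmr, a spindle assembly factor, had 1.44, Kif2c, a microtubule depolymerase, 1.11, Kif18a, which dampens chromosome movement, 0.89 (1.34 without the pair), and the chromokinesin Kif4 0.39 (0.68 without F325).

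For the midzone and cytokinesis, Prc1, which bundles antiparallel microtubules, had 26.5, 36.3, 23.5 and 24.9 CPM in the p53-driven tumors and 54.2, 57.9, 40.6, 52.1 and 37.0 CPM in the Myc-knockin tumors. F325 was just below M664, the groups did not overlap, and the log2 fold change of 0.80 was not called (adjusted p = 0.0826). Anln and Ect2, the anillin scaffold and the RhoA exchange factor of the contractile ring, had the smallest log2 fold changes of the 51, 0.050 and 0.050, which were -0.074 and -0.056 when scaled by library size alone. Anln had 67.9, 79.2, 40.1 and 51.6 CPM in the p53-driven tumors and 87.4, 85.5, 48.6, 62.6 and 25.2 CPM in the Myc-knockin tumors. Ect2 had 54.5, 41.9, 57.4 and 53.6 CPM in the p53-driven tumors and 70.2, 80.4, 40.6, 55.1 and 22.3 CPM in the Myc-knockin tumors. In both, M664 was below every other tumor, M351 and M408 were above every p53-driven tumor, and without the pair the values were 0.38 and 0.37. Racgap1 and Kif23, the subunits of centralspindlin, had 0.92 (0.51 without the pair) and 0.84, and Kif20a, a midzone kinesin, 0.97.

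Condensin I and topoisomerase had the lowest median of the roles, 0.39. Smc2, an ATPase of condensin, had 72.7, 96.5, 49.8 and 59.7 CPM in the p53-driven tumors and 106, 134, 80.5, 104 and 40.6 CPM in the Myc-knockin tumors. Its partner Smc4 had 219.6, 178, 155 and 133 CPM in the p53-driven tumors and 254, 281, 118, 148 and 90.0 CPM in the Myc-knockin tumors. In both, M664 was the lowest tumor and M408 the highest, with log2 fold changes of 0.42 and, for Smc4, 0.054 (-0.034 when scaled by library size alone). Without the pair they were 0.69 and 0.41, without M664 0.63 and 0.25, and without M408 0.27 and -0.15. Ncaph, the kleisin subunit, had 28.8, 46.7, 18.7 and 23.5 CPM in the p53-driven tumors and 28.3, 38.1, 35.9, 56.4 and 29.4 CPM in the Myc-knockin tumors. F325 exceeded all Myc-knockin tumors but M624, and the log2 fold change of 0.36 was 0.69 without F325, 0.20 without F331 and 0.22 without M624. Top2a, which untangles sister chromatids, had 161, 248, 220.1 and 104 CPM in the p53-driven tumors and 267, 282, 139, 317 and 108 CPM in the Myc-knockin tumors. F325 and F331 were above M9 and M664, and the log2 fold change of 0.28 was 0.47 without F325, 0.060 without F368, 0.18 without M624 and 0.48 without M664. Over all tumors Ncapd2 was the only gene of this role without overlap between the groups, with 1.20 (adjusted p = 0.066), and Ncapg had 0.86. Without the pair Ncapd2 had 0.90 and Ncapg 1.011.

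At the onset of anaphase, Espl1 (ENSMUSG00000058290, chromosome 15 from 102296266 to 102324357), which encodes separase, had 15.8, 15.0, 16.9 and 9.73 CPM in the p53-driven tumors and 32.6, 26.0, 39.0, 93.8 and 37.5 CPM in the Myc-knockin tumors. M408, the lowest Myc-knockin tumor, was above F331, the highest p53-driven one, and M624 stood far above the rest. Espl1 had a log2 fold change of 1.69 (standard error 0.41, adjusted p = 0.0412), and 1.22 without the pair. Pttg1, securin, which holds separase inactive, had 5.53, 9.33, 5.62 and 4.38 CPM in the p53-driven tumors and 4.92, 6.41, 14.3, 9.53 and 9.24 CPM in the Myc-knockin tumors. M9 was highest and M351, M408 and M664 lay within the p53-driven range, with a log2 fold change of 0.50, or 0.78 without F325 and 0.30 without M9. Cdc20, the activator of APC/C in mitosis, had 22.1, 28.5, 11.8 and 17.99 CPM in the p53-driven tumors and 37.6, 70.7, 20.7, 175 and 70.6 CPM in the Myc-knockin tumors. M624 stood far above every other tumor and M9 lay within the p53-driven range, with a log2 fold change of 1.92 and 1.20 without the pair. Ube2c, the ubiquitin-conjugating enzyme of APC/C, had 13.8, 40.1, 11.9 and 11.9 CPM in the p53-driven tumors and 24.0, 33.3, 28.7, 104 and 40.8 CPM in the Myc-knockin tumors. F325 stood far above the other p53-driven tumors, and the log2 fold change of 1.25 had an adjusted p of 0.16. It was 1.91 without F325, 0.78 without M624 and 0.62 without the pair.

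Per kilobase of annotated exon, the mean level in the Myc-knockin tumors was highest for Cdc20, at 40.1 CPM per kilobase, followed by Smc4 at 34.2 and Mki67 at 31.8. This order rested on M624, and without it Smc4 had 35.6, Mki67 30.8 and Cdc20 26.7. In the p53-driven tumors Smc4 led with 33.0 CPM per kilobase, then Mki67 with 22.4 and Top2a with 20.3, and Cdc20 had 10.8. The lowest were Cenpk, at 1.06 with Myc knockin and 0.775 in the p53-driven tumors, and, in the latter, Mybl2 at 0.982 CPM per kilobase. These lengths join all annotated exons of a gene, which can exceed its transcript, so the order between genes depends on the annotation. Background was not subtracted, and Cenpk in M9 had 4 counts where 6.5 were expected from it.

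M624 and M664 differed from the other Myc-knockin tumors by gene length, a relation looked for after the values were seen. Across the 51 genes, which are not independent replicates and share these libraries, the difference in mean log2 CPM between the pair and M351, M408 and M9 had a Spearman correlation of -0.56 with exon length. It was positive for short genes such as Spc24, Cdc20 and Aurkb and negative for long ones such as Cenpf, Cenpe and Kif18a. The log2 fold change between the groups had a correlation of -0.40 with exon length over all 9 tumors and -0.080 without the pair, and over 15359 genes tested it was -0.090. For the 26 shorter genes the median log2 fold change was 1.17, and 0.91 without the pair, and for the 25 longer genes it was 0.80 and 0.75. The part of RNA quality or library type in this was not tested.

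**Figure D3:**
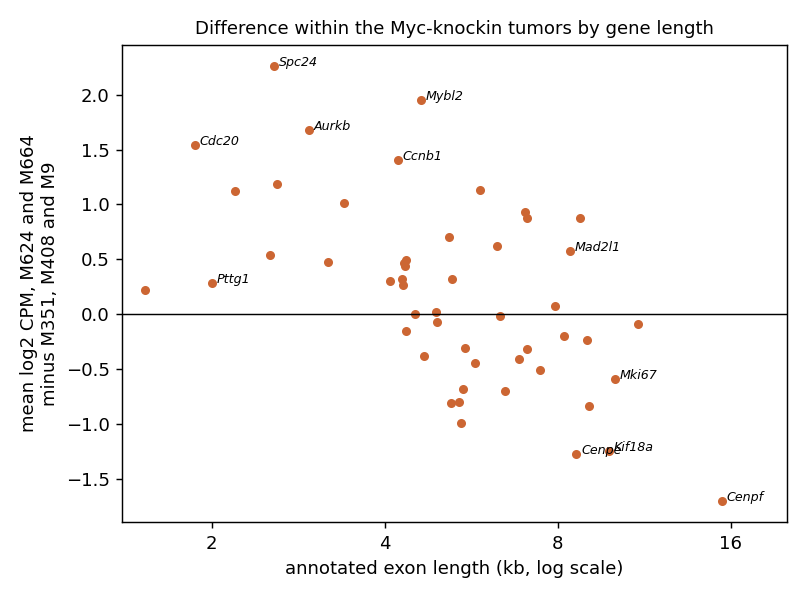
The difference in mean log2 CPM between M624 and M664 and the other 3 Myc-knockin tumors is plotted against annotated exon length (kb, log scale) for the 51 genes, each point being 1 gene. The shorter genes lie mostly above 0 and the longer ones mostly below, with a Spearman correlation of -0.56.

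Many promoters of these genes held a short sequence that was not used to choose them. Windows from 250 bases before to 50 bases after the annotated start were found for 43 of the 51 genes in RefSeq (GRCm38.p6), as 48 windows. The cell cycle genes homology region (CHR), to which MuvB binds, was searched as TTTGAA and TTCGAA and the CCAAT box, to which NF-Y binds, as CCAAT, each on both strands, TTCGAA being the same on either. Motifs were counted separately even where matches shared bases. TTTGAA was in 33 of the 48 windows (68.8%) and in 17.9% of all 32851 windows of the same length, and TTCGAA in 6.25% and 1.56%. CCAAT was in 75.0% of the windows and in 37.4% of all, and a CHR together with CCAAT in 62.5% and 7.52%. In 33 windows of DNA replication genes TTTGAA was in 15.2%, TTCGAA in 6.06%, CCAAT in 57.6% and a CHR together with CCAAT in 15.2%, whereas an E2F motif (TTTGGCGC, TTTCCCGC or TTTCGCGC) was in 36.4% of these, 10.4% of the mitosis windows and 1.84% of all. The E box CACGTG, to which MYC binds with MAX, was in 6.25% of the mitosis windows, 18.2% of the replication windows and 7.15% of all. The 31 genes with a CHR had a median log2 fold change of 0.97 and the 12 without one 0.56, and their ranges overlapped. These matches describe letters in a window and show neither binding nor a cause.

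Of the 24 genes given in every tumor that have a window, 12 had a whole CHR before the start in the first window listed, in 8 of them within 60 bases of it. The stretches of 30 bases around the match nearest to the start are shown for these 12, which were selected for holding a CHR, so that sharing it is no result. They run 5′ to 3′ on the strand of the gene, with the CHR in capitals (TTCAAA is TTTGAA on the opposite strand, and Bub1b has TTCGAA).
Cdk1 (chr10:69352913-69352942, minus strand): ctttaccgcggcgagTTTGAAactgctggc
Cdc20 (chr4:118437344-118437373, minus strand): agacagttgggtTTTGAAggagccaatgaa
Kif11 (chr19:37376351-37376380, plus strand): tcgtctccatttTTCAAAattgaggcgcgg
Kif15 (chr9:122951050-122951079, plus strand): tggggcgccaaaTTCAAAtctgcggccatc
Top2a (chr11:99024195-99024224, minus strand): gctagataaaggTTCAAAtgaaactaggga
Espl1 (chr15:102296254-102296283, plus strand): tcactagggataTTTGAAaggaggtgctgg
Ube2c (chr2:164769888-164769917, plus strand): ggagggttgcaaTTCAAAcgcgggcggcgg
Bub3 (chr7:131560315-131560344, plus strand): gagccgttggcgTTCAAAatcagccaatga
Mki67 (chr7:135716460-135716489, minus strand): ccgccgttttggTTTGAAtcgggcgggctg
Ect2 (chr3:27153975-27154004, minus strand): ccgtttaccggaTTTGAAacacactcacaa
Smc2 (chr4:52439064-52439093, plus strand): tcgctttccatgTTCAAAacggtatagtct
Bub1b (chr2:118598011-118598040, plus strand): tctctccctgggTTCGAAggcttgtcttag
The match began between 15 bases (Cdk1) and 188 bases (Bub1b) before the start. The 8 genes shown with a CHR within 60 bases before the start ranged in log2 fold change from 0.28 (Top2a) to 1.92 (Cdc20). Starts are those of RefSeq, and within the GENCODE bounds of the gene lie the matches of Cdk1, Kif15, Espl1, Ube2c and Bub3. Others given in every tumor hold a CHR in a window but are not shown: Anln (0.050), Ndc80 (0.18), Prc1 (0.80), Aurka (1.10), Cenpa (1.58) and Plk1 (1.66).

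Other genes of the same processes were taken from further lists. Of 136 genes listed, 132 were in the table and tested, 104 had a log2 fold change above 0 and 28 below, and 12 were called, all higher in the Myc-knockin tumors, with a median of 0.62. Over all genes tested 56.2% had a value above 0 and 2.26% were called higher. With F325, F331 or F368 left out edgeR called 0 of the 132, with 45, 36 and 31 at an unadjusted p under 0.05, without F187 1, and without M351 or M624 5. Over all genes edgeR called only 0.0498% without F325, 0.0375% without F331 and 0.0292% without F368. The share was 2.03% without F187, 2.44% without M351 and 2.62% without M624. With all tumors DESeq2 called 33 of the 132, limma-voom 23 and edgeR with scaling by library size alone 0 (19 at an unadjusted p under 0.05). Over all genes these fits called 17.4%, 10.8% and 0.885%. Without M624 and M664 edgeR called 11 of 131 and 4.61% of all genes, but not Cenpp, Oip5, Zwilch or Ube2s, and the median of the list was 0.52. Without the 4 libraries with satellite reads it called 45, of which 5 were lower, in a fit that called 27.9% of all genes. The inner centromere list had 15 of 16 genes above 0 (median 1.15), and the genes called in it included Cenpp and Oip5. Of the outer kinetochore and checkpoint genes 17 of 18 were above 0 (median 0.90), with Zwilch and Trip13 called, and Trip13, the ATPase that takes MAD2 complexes apart, had 5.14, 7.23, 5.10 and 6.93 CPM in the p53-driven tumors and 17.2, 32.4, 16.7, 61.0 and 24.2 CPM in the Myc-knockin tumors. No Myc-knockin tumor was as low as any p53-driven one, and the log2 fold change was 2.32 (adjusted p = 0.0229, from 1.76e-05 to 0.124 over the alternatives). By contrast Mad2l1bp, which works with it, had -0.55. For mitotic entry 14 of 15 were above 0 (median 1.12), and Wee1, the kinase that restrains CDK1, and Cks1b, a CDK-binding subunit, were called at 1.52 and 2.03. With 1 tumor left out Wee1 was called in 3 of 9 fits (adjusted p from 0.00254 to 0.267 over the alternatives). Cks1b was called in 5 of them (adjusted p from 0.000144 to 0.166).

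The subunits of APC/C and the cohesin genes had lower medians with all tumors than the centromere, kinetochore and mitotic entry lists. Of the 17 genes of APC/C and its inhibitor 12 were above 0, with a median of 0.46 that was 0.29 without M624 and 0.14 without the pair (10 above 0), 0.15 with limma-voom, and 0.95 without the 4 libraries with satellite reads, where 7 were called higher and 1 lower, in a fit that called 27.9% of all genes. Values ran from -0.68 for Cdc27 to 2.06 for Ube2s, the enzyme that extends ubiquitin chains. Ube2s was called (adjusted p = 0.0445, from 0.00254 to 0.174 over the alternatives), but in only 2 of the 9 fits that left out 1 tumor, those without M408 or M9. Of 13 cohesin genes 9 were below 0, with a median of -0.054 whose sign depended on the setting. With upper-quartile normalization 6 were below 0 (median 0.047), without M664 also 6 (0.072) and without the pair 4 (0.12), whereas without F187 9 were (-0.22) and without the 4 libraries with satellite reads also 9 (-0.46), with 2 called higher and 3 lower in the same fit. The largest value in the list was that of Cdca5 (sororin), which protects cohesion until anaphase and had 3.16, 3.27, 2.85 and 1.95 CPM in the p53-driven tumors and 12.3, 12.8, 6.37, 30.02 and 15.2 CPM in the Myc-knockin tumors. The groups did not overlap, and Cdca5 had a log2 fold change of 2.48 (standard error 0.47, adjusted p = 0.0244), the adjusted p being between 2.91e-05 and 0.109 over the alternatives, while Esco1, an acetyltransferase of cohesin, had -0.80. Spindle genes had 18 of 20 above 0 (median 0.78), with Spag5 and Ckap2 called, abscission genes had 7 of 9 (median 0.93), centriole duplication genes 6 of 9 (median 0.40), and condensin II and related genes 4 of 5 (median 0.56). Of the MuvB and DREAM subunits 7 of 10 were above 0 (median 0.24). Tfdp1, the dimer partner of E2F, was called at 1.49, and Rbl2 (p130), the pocket protein of DREAM in resting cells, had -0.53. With 1 tumor left out Tfdp1 was called in 5 of 9 fits (adjusted p from 5.45e-05 to 0.253 over the alternatives).

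DNA replication genes were compared to see where the mitosis genes differ from another cell cycle program. Of 36 listed, 35 were tested, all 35 had a log2 fold change above 0, 9 were called, and the median was 1.30, or 0.85 without the pair. Over all genes tested 56.2% had a value above 0 and 2.26% were called higher. Without F187, F325, F331 or F368 edgeR called 0 of the replication genes, with 23, 25, 20 and 18 at an unadjusted p under 0.05, and without M351 or M624 2, without M664 5 and without M9 15. Over all genes edgeR called 2.03% without F187, 0.0498% without F325, 0.0375% without F331 and 0.0292% without F368. It called 2.44% of all genes without M351, 2.62% without M624, 4.87% without M664 and 10.4% without M9. Without both M624 and M664 it called 2 of the replication genes, and without the 4 libraries with satellite reads 24 (median 1.96), where 27.9% of all genes were called. With all tumors DESeq2 called 21, limma-voom 10 and edgeR with scaling by library size alone 0 (15 at an unadjusted p under 0.05). Over all genes these fits called 17.4%, 10.8% and 0.885%. As a mean log2 CPM, Myc-knockin tumors had 4.73 ± 0.64 (SD, n = 5) and p53-driven tumors 3.67 ± 0.27 (SD, n = 4), a difference of 1.06, or 0.71 without the pair. The mitosis mean minus the replication mean was 0.76, 1.05, 0.84 and 0.83 in the p53-driven tumors. In the Myc-knockin tumors it was 1.08, 1.01, 0.77, 0.22 and 0.30. M624 and M664 were below all others, and M351, M408 and M9 spread over nearly the same range as the p53-driven tumors.

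Markers of other cells differed between the tumors as well. All 8 osteoblast markers had a log2 fold change below 0, with a median of -2.06 and calls for Bglap and Bglap2. Without F325, F331 or F368 edgeR called 0 of the 8, with 4 at an unadjusted p under 0.05 each time, and without F187 or M351 1. Over all genes edgeR called only 0.0498% without F325, 0.0375% without F331 and 0.0292% without F368. The share was 2.03% without F187 and 2.44% without M351. With all tumors DESeq2 and limma-voom called 4 of the 8 each, in fits that called 17.4% and 10.8% of all genes, against 5.27% with edgeR. The summed level of the osteoblast markers, led by Col1a1, ranged from 61310 to 140200 CPM in the p53-driven tumors and was 15140, 7357, 18410, 3403 and 40020 CPM in the Myc-knockin tumors. Bglap and Bglap2 had 0 counts in M408 and Bglap2 in M624, and the other 6 markers were detected in every tumor. All 7 osteoclast markers were below 0 (median -3.81) and 5 were called, against 1 without F325, F331 or F368 and 3 without F187 or M351, with sums of 2701 to 14050 CPM in the p53-driven and 122.7 to 2567 CPM in the Myc-knockin tumors, led by Mmp9, and with Dcstamp at 0 in M408. Of 10 macrophage markers 7 were below 0 (median -0.79) and 3 were called, all lower, whereas without F325, F331 or F368 edgeR called 0, with 3, 4 and 3 at an unadjusted p under 0.05. The macrophage median was -1.21 without M408, -0.48 without F368 and -0.51 without M624. DESeq2 and limma-voom called 3 each with all tumors, and edgeR with scaling by library size alone 0 (3 at an unadjusted p under 0.05). Lyz2 was the most abundant, and the sum of the macrophage markers was highest in F331 (1495 CPM) and lowest in M9 (288 CPM), with no marker at 0. The 9 erythroid markers in the table summed to 229.6 CPM in M624 and 788 CPM in M664, led by Hba-a1, and to at most 47.6 CPM in the other 7, where Hba-a1 and Hba-a2 were at 0. A further 7 lists, for leukocytes, T cells, B cells, neutrophils, endothelium, skeletal muscle and cartilage, held 41 genes, of which 27 were tested, 10 were above 0 and 17 below. Of these edgeR called 0, with 11 at an unadjusted p under 0.05, DESeq2 called 5 and limma-voom 1, and without M9 or without M664 edgeR called 1. The sum of the skeletal muscle markers, led by Acta1, was lowest in M624 (2.29 CPM) and highest in F325 (3726 CPM), and cartilage markers, led by Col2a1, were highest in F331 (2662 CPM). Without the pair the medians were -2.04 for osteoblast, -4.75 for osteoclast and -0.62 for macrophage markers, with 4, 6 and 3 called, and edgeR called 1 gene of the 7 lists. Without the 4 libraries with satellite reads it called 1, 3 and 2 of these markers and 6 genes of the 7 lists, against 27.9% of all genes. The part of these cells in the levels of the mitosis genes was not tested.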

How the data were processed

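Libraries were made with a stranded kit after enrichment of mRNA, and reads were trimmed with a stated commit of Trim Galore, aligned to mm10 by STAR and assigned to genes by featureCounts, and the authors deposited these counts unnormalized. The versions of STAR and featureCounts, the strand setting of the counting and the treatment of multimapping reads are not given in the sources used here, so overlapping or antisense genes cannot be separated. Columns carry names that are absent from the sample labels. Of the 9 names, 6 stand under their genotype in the study's supporting data, and M351, M9 and M664 were assigned by the letter M. No column can be paired with a numbered sample. Replicates of a group differed by more than sampling noise.

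Counts were compared in R 4.3.3 with edgeR 4.0.16 (TMM, filterByExpr with a minimum count of 10, glmQLFit, glmQLFTest), with Benjamini-Hochberg adjustment over 15365 genes, and with a prior count of 2 in log2 CPM. The thresholds for a call were 0.05 for the adjusted p and 1.5 for the fold change. Alternatives were DESeq2 1.42.0, limma 3.58.1 (voom with quality weights), other scalings and filters, removal of satellite genes, subtraction of background estimated from 1781 chemosensory receptor genes, and tumors left out. Satellite genes were those with over 20 CPM of all counts in F187, M351, M408 and M9 and over 20 times the highest value elsewhere. Exon lengths are unions of annotated GENCODE exons, and promoters are from RefSeq. The fits were tested on simulated data. At the spread of these tumors DESeq2's calls included a larger share of false ones than those of edgeR. In the same data edgeR found few of the genes that had been changed.

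The genes and lists were chosen with earlier results of these data known. Values in every tumor are given for 24 genes picked by role, for the 3 largest and 3 smallest log2 fold changes, and for every gene called. Spc24, Trip13 and Cdca5 were added to these after their values were seen. In the further lists of mitosis genes, those called were named, except for a gene that is not reported here. Other genes of further lists were named as examples, after their values were seen. Floors, taken as 3 counts, cover counting error only.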

Additional observations from a re-analysis of the deposited data

Results flagged for a closer look

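In 1 of 58 groups of values examined (28 genes and the mean of the 51 genes, in each group of tumors), a tumor lay far from the rest. Ube2c, the conjugating enzyme of APC/C, had a log2 CPM of 5.33 (40.1 CPM) in F325, where the nearest p53-driven tumor had 3.81. Chance alone gives such a gap in about 1 in 20 groups, or 2.9 of the 58. F325 also had the highest mean of the 51 genes among the p53-driven tumors.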

How the results depend on the processing

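The number of the 51 genes called depended on the processing and on single tumors far more than the size of the difference did. It was 7 with edgeR, 19 with upper-quartile normalization, 0 with library size alone, 24 with DESeq2, 15 with limma-voom, 2 when every gene with a count was tested, 22 of 48 when 10 counts were required in each tumor, 4 with satellite genes removed, 17 with genomic background subtracted, 17 without the 4 libraries with satellite reads, and between 0 and 16 with 1 tumor left out. Over all genes the 809 calls (5.27% of those tested) became 136 (0.885%) with library size alone, 2670 (17.4%) with DESeq2 and 1663 (10.8%) with limma-voom. They became 494 (1.04%) when every gene with a count was tested and 1316 (14.2%) when 10 counts were required in each tumor. Without the 4 libraries with satellite reads they became 4595 (27.9%), and with 1 tumor left out between 5 (0.0292%) and 1588 (10.4%). All-gene calls numbered 644 (3.81%) with satellite genes removed, 1130 (7.83%) with genomic background subtracted and 971 (6.32%) with upper-quartile normalization. Of the 51, 33.3% were called both with background subtracted and without the 4 libraries with satellite reads, against these unlike shares of 7.83% and 27.9%. No call among the 51 was lower in the Myc-knockin tumors in any of these fits. The share of all calls that were higher was 43.0% (348 higher, 461 lower), 64.5% with upper-quartile normalization (626 and 345) and 36.8% with library size alone (50 and 86).

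The median log2 fold change of the 51 genes, 0.92, ranged from 0.80 to 1.03 with 1 tumor left out and moved by less than the spread between tumors in every other setting. The difference in mean log2 CPM likewise did not move beyond that spread. The median of all genes was 0.14, 0.24 with upper-quartile normalization and 0.027 with library size alone, and above it the median of the 51 stood by 0.78, 0.75 and 0.94. When all 47719 genes with a count were tested, their median was 0.97, above the 0.89 of the 51.

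Among the 28 genes given in every tumor by rule, signs reversed for 5, none of which was called. With library size alone the log2 fold change was -0.026 for Ndc80, -0.074 for Anln, -0.056 for Ect2 and -0.034 for Smc4. It was -0.096 for Mad2l1 with limma-voom and -0.081 without M624 and M664. When every gene with a count was tested it was -0.080 for Anln, -0.066 for Ect2 and -0.066 for Smc4. Without the 4 libraries with satellite reads it was -0.15 for Ndc80, -0.36 for Anln, -0.39 for Ect2 and -0.37 for Smc4. With 1 tumor left out it ranged from -0.10 to 0.28 for Anln, -0.12 to 0.27 for Ect2, -0.15 to 0.25 for Smc4, -0.013 to 0.48 for Ndc80 and -0.14 to 0.33 for Mad2l1. The cause was not tested.

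No paired analysis was possible because the columns carry no replicate numbers. Depth limits the low genes most: 8 of the 51 had fewer than 20 counts in M9, 5 in M351 and 5 in F187, and 0 in the other 6 tumors.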
